A study of Mus musculus with 8 samples.

Results

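Mitochondrial ribosomal protein genes were taken as all genes on the array whose name begins with Mrpl or Mrps followed by a number. There were 76 such genes, 47 named for the large subunit and 29 for the small subunit, among 20894 genes and unnamed probes that could be tested. A probe entered the test if 4 or more of the 8 arrays showed it well above background, and each gene was represented by its brightest tested probe. All 76 genes passed, and each brightest probe was well above background on all 8 arrays, so no gene was lost to the filter. The rule uses the gene name and the background filter, and no difference between groups.

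The study measured hippocampal total RNA from female C57BL6/J mice with Agilent one-colour (Cy3) arrays. All 8 samples came, per the labels, from mice aged 8 weeks that had been kept for 4 weeks in an enriched environment. The control group (n = 4) had received control antibodies and the anti-CD4 group (n = 4) antibodies against CD4, a surface protein of helper T lymphocytes. By its title, the series asks whether loss of CD4+ T cells alters gene expression in the hippocampus. Both groups shared the enriched housing, and no group in standard housing was analysed here. The labels give no antibody clone, dose or schedule and do not tie each sample to an animal of its own. The p-values therefore cover the spread among these samples only, which may not be a spread among separate animals. That spread includes differences in tissue content, as the choroid plexus values given below show. Values are on a log2 scale relative to the 75th percentile of each array, and every difference is the anti-CD4 mean minus the control mean.

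The mitochondrial ribosome, or mitoribosome, translates the few messenger RNAs of mitochondrial DNA, all of which encode subunits of the oxidative phosphorylation complexes. Its RNAs come from mitochondrial DNA, but its proteins are encoded in the nucleus, made in the cytosol and imported. Some descend from bacterial ribosomal proteins and others are particular to mitochondria, and neurons depend on the complexes they help to build for much of their ATP.

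Promoter windows from RefSeq (GRCm38.p6) run from 250 bases before to 50 bases after a gene's start and were held for 67 of the 76 genes, in 73 windows. Windows were searched on both strands for motifs of 4 factor families that are known for nuclear genes of mitochondrial function, and matches of different motifs were counted separately. The YY1 motif AAGATGGC was in 12 windows, 16.4% of those of the mitoribosomal genes, against 2.75% of all 32851 windows. The ETS motif CCGGAAGT, the core bound by GABP, was also in 12 windows (16.4%, against 3.89% of all). The NRF1 palindrome, whose letters are the capitals of the Mrpl39 window, was in 3 (4.11%, against 0.971%) and the cyclic AMP response element TGACGTCA in 2 (2.74%, against 1.79%). A match describes the letters only and is no evidence of binding in these samples. The windows below show one example of each of the first 3 motifs, a gene that carries a pair of them, and Mrpl34, whose groups did not overlap and whose window held none. Capitals mark the motif, in either orientation.
Mrps12, chr7:28741772-28742071, minus strand: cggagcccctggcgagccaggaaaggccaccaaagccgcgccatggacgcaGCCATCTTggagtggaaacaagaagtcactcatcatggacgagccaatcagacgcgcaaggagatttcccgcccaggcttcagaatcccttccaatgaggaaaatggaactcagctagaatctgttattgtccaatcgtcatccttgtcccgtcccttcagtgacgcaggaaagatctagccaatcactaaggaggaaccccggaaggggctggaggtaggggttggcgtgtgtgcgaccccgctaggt
Mrps18c, chr5:100798509-100798808, plus strand: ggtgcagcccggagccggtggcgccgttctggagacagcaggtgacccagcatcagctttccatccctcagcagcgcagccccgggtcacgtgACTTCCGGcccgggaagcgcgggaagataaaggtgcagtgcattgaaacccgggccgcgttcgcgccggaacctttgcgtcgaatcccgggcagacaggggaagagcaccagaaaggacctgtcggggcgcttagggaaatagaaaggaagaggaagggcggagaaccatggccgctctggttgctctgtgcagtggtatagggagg
Mrpl39, chr16:84735195-84735494, minus strand: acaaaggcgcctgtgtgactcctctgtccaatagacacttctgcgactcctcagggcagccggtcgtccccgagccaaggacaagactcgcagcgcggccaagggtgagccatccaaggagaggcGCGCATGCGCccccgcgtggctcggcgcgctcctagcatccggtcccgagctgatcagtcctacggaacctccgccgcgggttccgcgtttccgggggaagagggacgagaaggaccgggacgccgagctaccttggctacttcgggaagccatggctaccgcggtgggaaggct
Mrps27, chr13:99344536-99344835, plus strand: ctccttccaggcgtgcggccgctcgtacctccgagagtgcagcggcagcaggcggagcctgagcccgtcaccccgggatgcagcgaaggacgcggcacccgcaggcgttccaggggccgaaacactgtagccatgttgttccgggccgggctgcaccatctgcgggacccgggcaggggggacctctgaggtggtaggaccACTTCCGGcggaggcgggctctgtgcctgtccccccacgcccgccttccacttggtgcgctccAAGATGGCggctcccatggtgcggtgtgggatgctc
Mrpl34, chr8:71464676-71464975, plus strand: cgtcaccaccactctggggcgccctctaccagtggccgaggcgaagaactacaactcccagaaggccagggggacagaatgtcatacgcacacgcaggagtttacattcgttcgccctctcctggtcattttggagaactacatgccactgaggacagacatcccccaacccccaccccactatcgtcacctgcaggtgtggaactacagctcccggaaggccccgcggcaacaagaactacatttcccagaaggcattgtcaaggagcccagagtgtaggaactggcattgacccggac
The capitals of Mrps12, a YY1 match in reverse orientation, begin 199 bases before the start. Those of Mrps18c, an ETS match, begin 157 bases before it. The NRF1 match of Mrpl39 begins 125 bases before the start. In Mrps27 the ETS match begins 49 bases before the start, and the YY1 match begins 14 bases after it.

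The arrays lay on 1 slide with the anti-CD4 samples in the first row and the controls in the second, and an effect of the row cannot be told apart from one of the group. Between 51.13% and 54.28% of probes per array were well above background (exact permutation p = 0.8 between groups), and no probe of a mitoribosomal gene was saturated. Spots flagged as outliers were more frequent in the anti-CD4 row, at 127 to 179 per array against 98 to 124 in the controls (exact permutation p = 0.0286). All 14 hippocampal neuron markers looked for were detected. Of these, 10 lay below zero, with a median difference of -0.14, and none passed after adjustment in limma. Neurod6, of pyramidal neurons, differed by -0.50 with no overlap, and Prox1, of the dentate gyrus, by -0.52 with overlap (limma adjusted p of 0.25 and 0.377). Calb1, of the same list, went the other way and differed by 0.43 with overlap (limma adjusted p = 0.31). The choroid plexus transcript Ttr, which codes for transthyretin, spanned -0.46 to 8.48 over the arrays, and all 12 choroid plexus markers were tested (median difference 1.09). The 5 red blood cell markers tested were higher in the anti-CD4 group at an unadjusted p under 0.05 in limma (median difference 0.49). Over all features 6.61% were, and none of these markers passed after adjustment. Of 15 tested markers of glia and vessels, 11 lay above zero and 4 below (median 0.08), and none passed after adjustment. At an unadjusted p under 0.05 in limma there were 3 (20.0%, against 12.8% of all features). Flt1 differed by 0.33 with no overlap, and Pecam1 by 0.26 and Mog by -0.29 with overlap. All 7 tested markers of neighbouring hypothalamus and striatum lay above zero (median 0.40). Trh, a hypothalamic neuropeptide gene, read 2.68, 2.37, -2.49 and 2.34 in anti-CD4 samples 1 to 4 and -4.36 to -2.94 in the controls, a difference of 4.58. Esr1, an estrogen receptor gene, differed by 1.21, with anti-CD4 3 again closest to the controls (limma adjusted p = 0.241 for both). With each array left out, Trh ran from 4.09 to 5.81 and Esr1 from 1.06 to 1.51. The upper ends came without anti-CD4 3, where both were among 17 features that passed (limma adjusted p of 0.00454 and 0.0337). That fit leaves out the array closest to the controls for these genes, so the passes are not read as support. Neither gene was well above background on every array. The part of these neighbouring tissues in the differences between groups was not tested, apart from the fit with Ttr given further on.

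No mitoribosomal gene passed the test between the anti-CD4 and control groups. With limma and Benjamini-Hochberg adjustment, 0 of 76 reached an adjusted p of 0.05, as did 0.0% of all features tested, and the smallest adjusted p among the 76 was 0.254. At an unadjusted p under 0.05 there were 5 genes (6.58%), 2 higher and 3 lower, against 12.8% of all features (6.61% higher and 6.18% lower). The groups did not overlap for 5 genes (6.58%), 2 higher and 3 lower, against 8.09% of all features (4.07% higher and 4.02% lower). Both shares lay below those of all features, and neither count is read as a result about these genes. For the count without overlap that order turned with the scaling: it was 16 genes (21.1%, against 10.4% of all features) in the authors' deposited table, 10 (13.2%, against 9.03%) with normexp and 9 (11.8%, against 9.29%) with quantile normalization. Single arrays moved both counts, and the shares of all features moved too. The unadjusted count was 1 without anti-CD4 2 (1.32%, against 9.25%), 3 without control 2 (3.95%, against 10.68%) and 9 without anti-CD4 3 (11.8%, against 15.7%). The count without overlap was 8 without anti-CD4 4 (10.5%, against 10.71%), 12 without control 1 (15.8%, against 11.4%) and 15 without anti-CD4 3 (19.7%, against 16.8%).

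The differences were small in size. The median over the 76 genes was 0.011 on the log2 scale, against 0.013 over all features, and single genes ran from -0.27 to 0.18. Above zero lay 44 genes and below it 32. The sign of the median depends on the scaling, which gave -0.0037 after quantile normalization, -0.0063 after normexp background correction and -0.0078 in the authors' deposited table. For 52 genes (68.4%) the difference was within 0.1 of zero, against 49.5% of all features. The share was 60.5% for cytosolic ribosomal protein genes and 69.2% for nuclear genes of oxidative phosphorylation subunits.

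The intervals of the differences were narrow. The 95% interval of the difference lay within 0.5 of zero for all 76 genes, against 76.4% of all features, and its farthest bound was 0.46. The median half-width of the interval was 0.166, against 0.217 over all features. The median spread within groups was 0.0898 (pooled SD), against 0.137. In bulk tissue, fewer cells of a type and less RNA per cell cannot be told apart, and the values are averages over the dissected tissue.

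**Figure D1:**
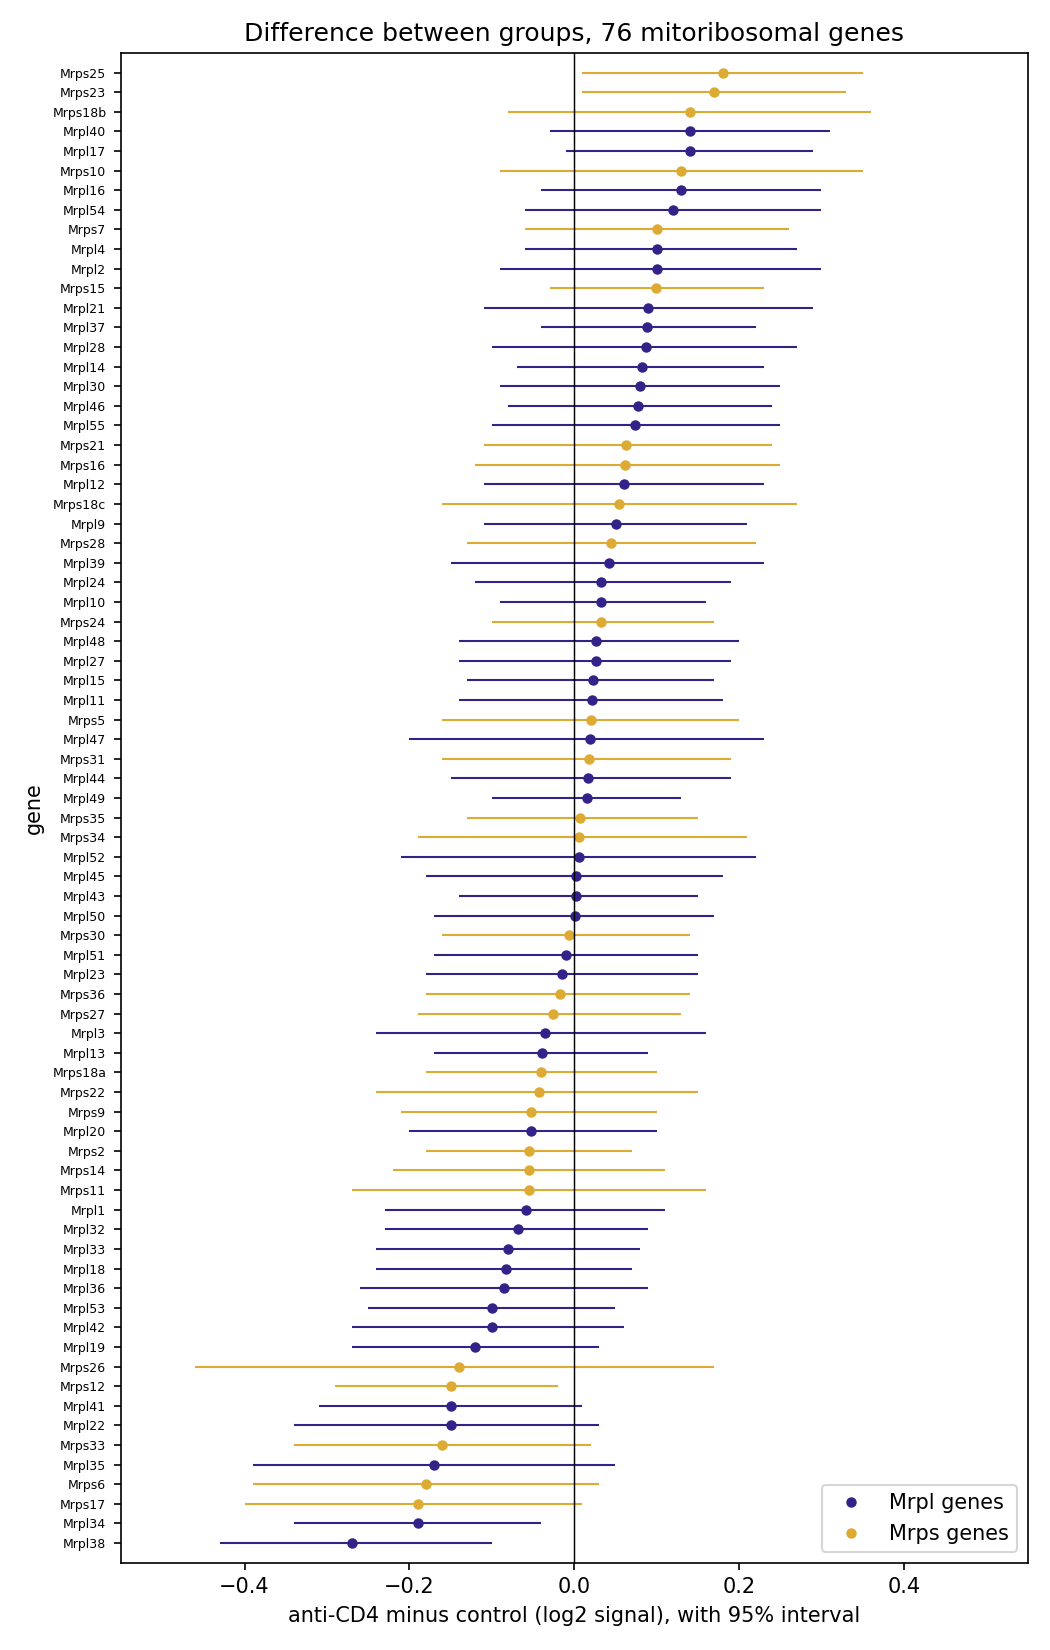
Difference between groups (anti-CD4 minus control, log2 signal, points) with its 95% interval (lines) for each of the 76 genes, sorted by difference and coloured by the subunit in the gene's name. Every interval lies within 0.5 of zero, and genes of both subunits are spread from Mrpl38 at -0.27 to Mrps25 at 0.18.

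Among the genes named for the large subunit, the part that forms peptide bonds, Mrpl38 had the lowest difference. Mrpl38 belongs to the central protuberance, the crown of the large subunit that faces the small one. Its probe lies at chr11:115993268-115993327 (mm9, the build of the files' probe coordinates). The controls 1 to 4 read 1.93, 1.92, 1.75 and 1.75, and the anti-CD4 samples 1 to 4 read 1.49, 1.59, 1.54 and 1.67. All anti-CD4 samples were below all controls. The difference was -0.27 (SE 0.072), a 1.2-fold lower signal, with an unadjusted p of 0.00568 and an adjusted p of 0.254 in limma.

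Mrpl34, the counterpart of a small bacterial large-subunit protein, read 2.52, 2.53, 2.48 and 2.42 in the controls and 2.30, 2.18, 2.30 and 2.40 in the anti-CD4 samples. The groups were next to each other without overlap, with control 4 and anti-CD4 4 closest. The difference was -0.19 (SE 0.065, limma adjusted p = 0.294), from a probe at chr8:73989526-73989585 (mm9).

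The rest of the large subunit stayed closer to zero. Of all 47 genes, Mrpl38 and Mrpl34 included, 29 were above zero and 18 below, with a median of 0.017. At an unadjusted p under 0.05 no gene was higher and 2 were lower (Mrpl38 and Mrpl34), against 6.61% and 6.18% of all features. The central protuberance, stalk and tunnel exit were grouped after the values had been seen, so what follows is a description. In the central protuberance, Mrpl38 stood beside Mrpl40 at 0.14, Mrpl46 at 0.077, Mrpl48 at 0.027 and Mrpl18 at -0.083. The stalk genes, which recruit translation factors, gave 0.033 (Mrpl10) and 0.06 (Mrpl12). A second tested probe of Mrpl10 gave 0.16, higher without overlap. The mean signal of Mrpl12 was 3.98 ± 0.08 (SD, n = 4) for controls and 4.04 ± 0.10 (SD, n = 4) for anti-CD4 samples. At the exit of the peptide tunnel, Mrpl45, which anchors the mitoribosome to the inner membrane, differed by 0.0017, Mrpl24 by 0.033, Mrpl23 by -0.015 and Mrpl22 by -0.15.

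The genes nearest to a zero difference were Mrpl50, Mrpl45 and Mrpl43. Mrpl50, a protein particular to mitochondria, averaged 2.75 ± 0.12 (SD, n = 4) for controls and 2.75 ± 0.04 (SD, n = 4) for anti-CD4 samples, with a 95% interval of -0.17 to 0.17. For Mrpl45 the interval was -0.18 to 0.18. For Mrpl43 it was -0.14 to 0.15, and a second tested probe of Mrpl43 gave -0.083, lower without overlap.

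Among the genes named for the small subunit, which reads the messenger RNA, Mrps12 was lower without overlap. Mrps12 is the counterpart of the bacterial protein at the decoding centre that is known from streptomycin resistance. Its probe at chr7:29524837-29524896 (mm9) read 4.64, 4.62, 4.70 and 4.65 in the controls and 4.59, 4.48, 4.50 and 4.43 in the anti-CD4 samples. The controls lay close together and anti-CD4 1 was nearest to them. The difference was -0.15 (SE 0.059, limma adjusted p = 0.342).

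Mrps23, a small-subunit protein particular to mitochondria, was higher without overlap by a narrow margin. Its brightest probe, at chr11:88024940-88024999 (mm9), read 3.96, 4.02, 4.22 and 4.12 in the controls and 4.28, 4.22, 4.25 and 4.26 in the anti-CD4 samples. The highest control and the lowest anti-CD4 sample both round to 4.22, and the anti-CD4 samples varied less than the controls. The difference was 0.17 (SE 0.069, limma adjusted p = 0.354). A second tested probe of Mrps23 gave -0.017.

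Mrps15, which binds the RNA of the small subunit, was the other gene with higher values and no overlap. The controls read 2.0, 2.03, 1.94 and 1.93 and the anti-CD4 samples 2.05, 2.07, 2.04 and 2.14. The groups lay almost side by side, with control 2 and anti-CD4 3 closest. The difference was 0.099 (SE 0.057), with an unadjusted p of 0.118 and an adjusted p of 0.49 in limma. Its probe crosses a splice junction between chr4 positions 125728625 and 125730774 (mm9).

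Mrps25, named here after its values were seen, had the highest difference of all 76 genes but overlapped. The controls read 3.55, 3.60, 3.75 and 3.72 and the anti-CD4 samples 3.93, 3.83, 3.72 and 3.87. Anti-CD4 3 lay within the control range. The difference was 0.18 (SE 0.073, limma adjusted p = 0.356), and a second tested probe of Mrps25 gave 0.019.

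**Figure D2:**
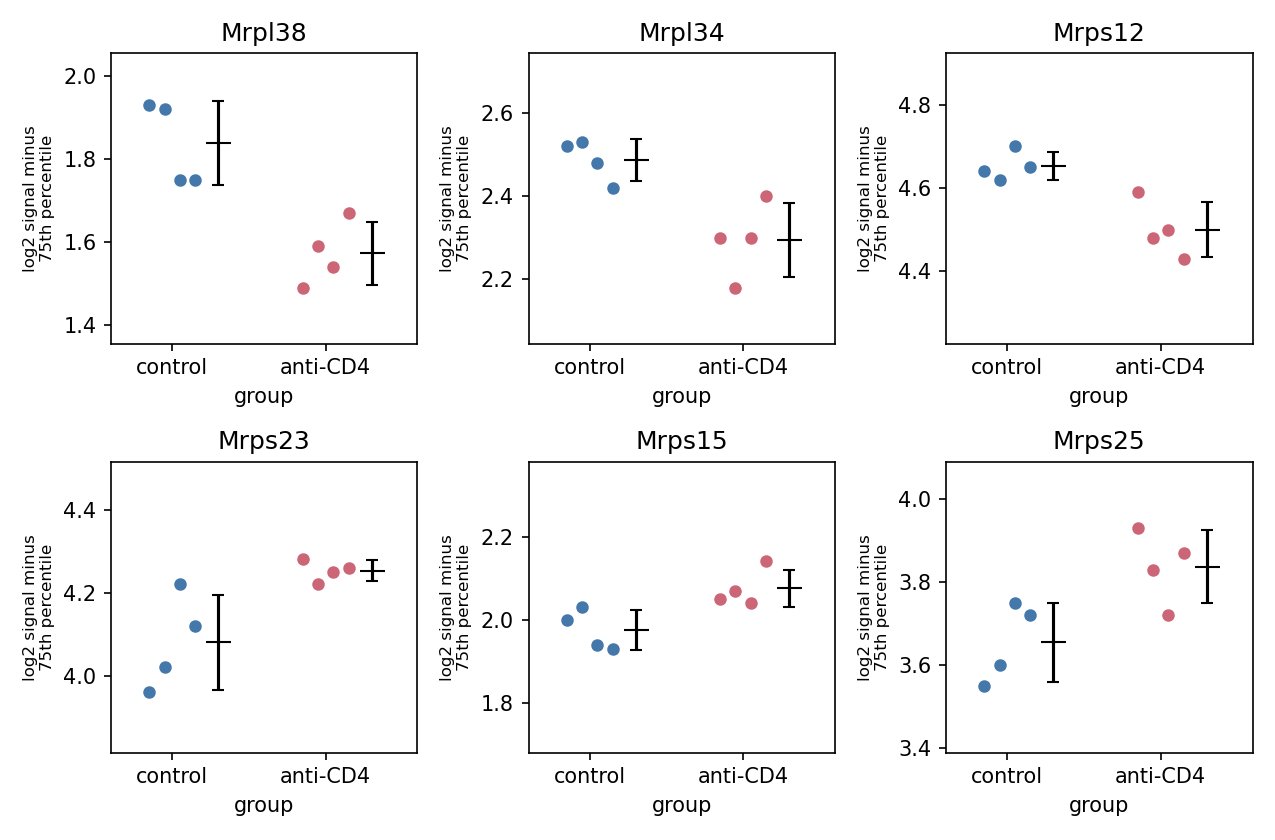
Signal (log2 signal minus the array's 75th percentile) in each array for the 5 genes whose groups did not overlap and for Mrps25. Points are arrays in order of replicate number, the bar is the group mean and the whiskers are 1 SD (n = 4). The vertical axes differ between genes, and Mrps25 is the panel in which an anti-CD4 array lies within the control range.

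The remaining small-subunit genes spanned both sides of zero. Of all 29, the genes named above included, 15 were above zero and 14 below, with a median of 0.006. Gene names do not always match the structure, and the following were also picked after their values were seen. Mrps30 and Mrps18a, whose proteins sit in the large subunit despite the name, differed by -0.0058 and -0.04. Mrps36, now regarded as part of the oxoglutarate dehydrogenase complex, differed by -0.017.

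Several genes were measured by more than one probe, which, by the gene names of the probes, gives a second reading of the same gene on the same arrays. The 76 genes had 106 probes, 104 of them tested. Of the 25 genes with several tested probes, the probes had one sign in 12 and opposite signs in 13, with a median gap of 0.075 and a widest gap of 0.31 in Mrpl47. For 3 genes the signs were opposite and one probe had an unadjusted p under 0.05 in limma. In Mrps7, a protein of the small subunit's head, the brightest probe gave 0.10 and the other -0.17. The brightest probe of Mrpl39, whose promoter carries the NRF1 match, gave 0.042, and the other -0.19. Mrps23 is the last of the 3.

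A few pairs gave like values, and these too were picked after the values were seen. Mrps17, a small-subunit gene with a bacterial counterpart, gave -0.19 and -0.14. Mrpl41 gave -0.15 and -0.18. Mrps26, of the small subunit, gave -0.14 for the brightest probe and -0.17 for the dimmer one, whose groups did not overlap. That dimmer probe read 3.0, 3.28, 3.16 and 3.09 in the controls and 2.97, 2.93, 2.95 and 2.98 in the anti-CD4 samples.

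**Figure D3:**
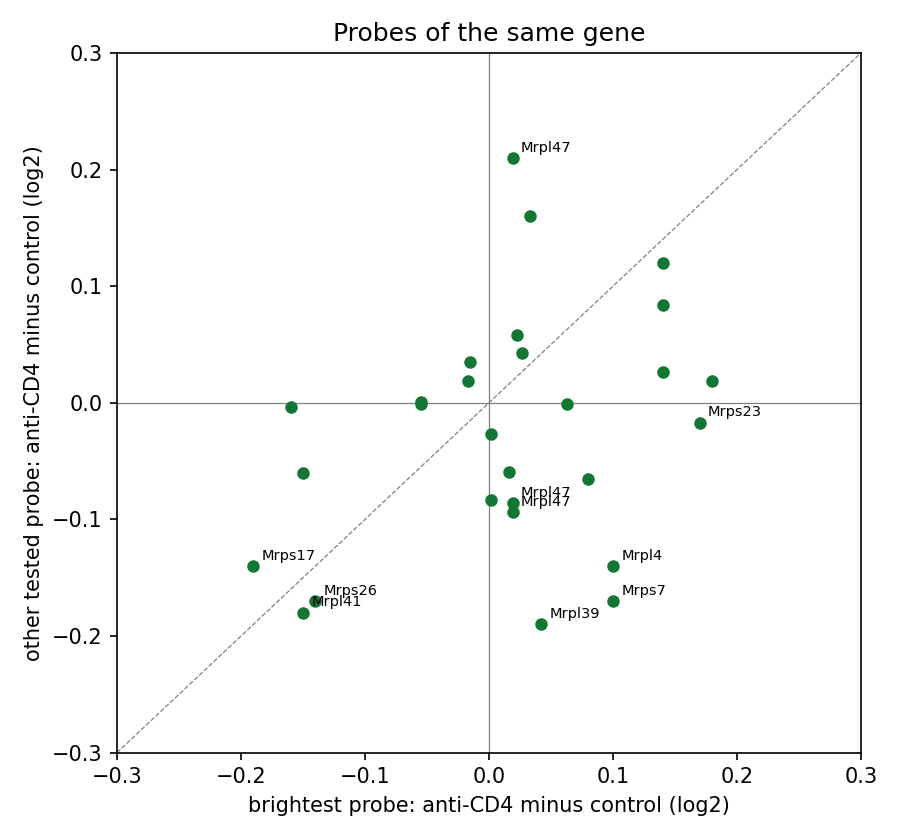
Difference between groups (anti-CD4 minus control, log2) of the brightest probe on the horizontal axis against that of each other tested probe on the vertical axis, for the 25 genes with several tested probes (28 points). The dashed line marks equal values, and Mrps7, Mrpl39 and Mrps23 lie right of zero and below it.

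The 76 genes varied together from array to array within each group. Each gene's values were expressed as deviations from its mean over the 8 arrays. The median deviation of the 76 genes was -0.075, 0.043, 0.057 and -0.028 in controls 1 to 4 and 0.058, -0.049, -0.053 and 0.042 in anti-CD4 samples 1 to 4. Each group thus held high arrays (controls 2 and 3, anti-CD4 1 and 4) and low arrays (controls 1 and 4, anti-CD4 2 and 3). Over all features the medians were -0.032, 0.0095, 0.026 and -0.008 in the controls. In the anti-CD4 samples they were 0.034, -0.0079, -0.019 and 0.02. The same arrays were thus high and low over all features, by smaller amounts, so the order is not particular to the mitoribosomal genes.

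Single genes followed the same order. Among the controls, control 1 was lowest for 40 genes (52.6%, against 34.3% of all features) and control 3 highest for 41 (53.9%, against 27.2%). Among the anti-CD4 samples, anti-CD4 1 was highest for 42 genes (55.3%, against 32.6%). Anti-CD4 2 was lowest for 34 genes (44.7%, against 27.5%) and anti-CD4 3 for 35 (46.1%, against 35.9%). The size of the pattern depends on the scaling: the medians spanned 0.13 here, 0.14 with median centring, 0.12 with normexp, 0.07 with quantile normalization and 0.08 in the authors' deposited table, where control 1 lay at 0.00084.

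Other gene families of protein synthesis and respiration varied in a like order, which all features shared with smaller medians. For 76 cytosolic ribosomal protein genes the median deviations were -0.11, 0.027, 0.029 and -0.046 in the controls and 0.11, -0.071, -0.049 and 0.092 in the anti-CD4 samples. For 78 nuclear genes of oxidative phosphorylation subunits they were -0.098, 0.0098, 0.051 and 0.0014, then 0.055, -0.063, -0.014 and 0.061. With the 75th percentile scaling, control 1 was the lowest array in each of the 3 families and over all features. For the mitoribosomal genes anti-CD4 3 was lowest with quantile normalization (-0.039) and in the authors' deposited table (-0.042), and control 4 with normexp (-0.056).

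Choroid plexus signal ran mostly opposite to this order. Ttr read 8.16, 2.72, -0.46 and 8.26 in controls 1 to 4 and 1.22, 7.60, 8.48 and 7.75 in anti-CD4 samples 1 to 4. The median of the 12 choroid plexus markers was 1.95, -2.58, -3.43 and 1.92 in the controls and -2.80, 1.04, 2.42 and 1.19 in the anti-CD4 samples, as deviations from each gene's mean. The 3 arrays with low Ttr were all high arrays for the mitoribosomal genes, and anti-CD4 4 was high with a Ttr of 7.75.

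A further fit held both the group and the Ttr signal, and its slope on Ttr was read only after the array pattern had been seen. The slope was negative for 69 of the 76 genes (90.8%), against 62.1% of all features, 97.4% of the cytosolic ribosomal genes and 83.3% of the oxidative phosphorylation genes. The slope had an unadjusted p under 0.05 in limma for 10 genes (13.2%, all negative), against 6.28% of all features with a negative slope. None passed after adjustment, against 0.565% of all features. The median slope was -0.013 log2 units per log2 unit of Ttr. The steepest of these was that of Mrps18c, one of the counterparts of a bacterial small-subunit protein, at -0.033. With Ttr in the fit, 8 mitoribosomal genes had an unadjusted p under 0.05 between groups (10.5%, against 13.4% of all features), and again none passed after adjustment.

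**Figure D4:**
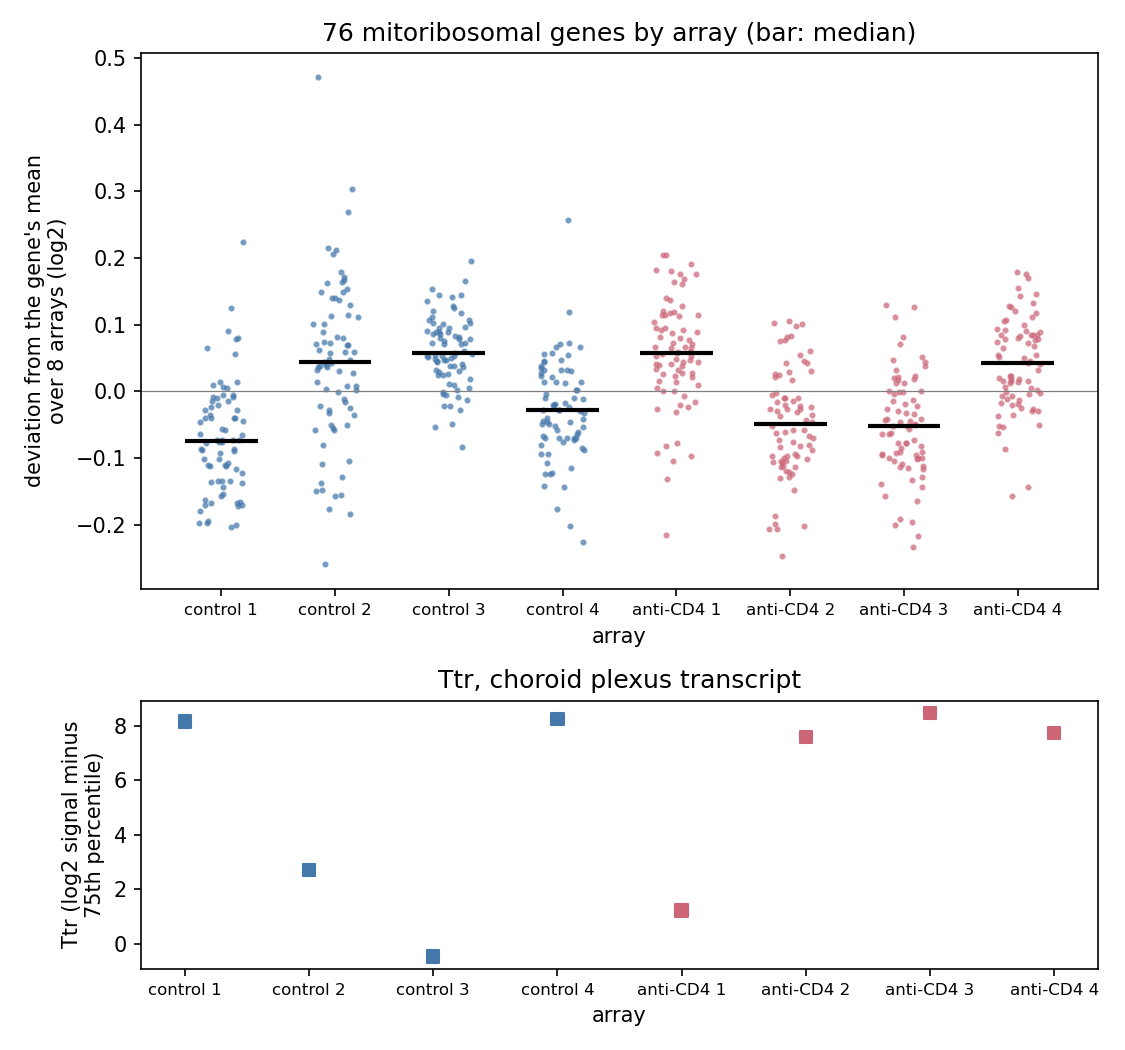
Top, deviation of each of the 76 genes from its mean over the 8 arrays (log2, points) with the median of each array (bar); bottom, Ttr signal (log2 signal minus the 75th percentile) in the same arrays. Controls 2 and 3 and anti-CD4 1 have a high median and low Ttr, while anti-CD4 4 has a high median and a Ttr of 7.75.

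Among mitoribosomal proteins that carry other names, 1 gene of 7 had groups that did not overlap (14.3%, against 8.09% of all features). With so few genes this count is not read as a result about them. Aurkaip1, a small-subunit protein particular to mitochondria, read 5.76, 5.85, 5.99 and 5.90 in the controls and 6.27, 6.11, 6.10 and 6.21 in the anti-CD4 samples. All anti-CD4 samples were above all controls, with a difference of 0.30 (SE 0.073, limma adjusted p = 0.248). Dap3, a GTP-binding small-subunit protein, differed by 0.11, and Ict1, a peptidyl-tRNA hydrolase built into the large subunit, by 0.099. Over the 7 genes the median was 0.094, with 6 above zero.

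Genes that build and serve the mitoribosome also gave no call after adjustment. Among 23 tested genes of assembly and rRNA modification the median was -0.012, and 1 gene had an unadjusted p under 0.05 (4.35%, against 12.8% of all features). That gene, Mrm1, which methylates the large-subunit RNA, differed by 0.28 (SE 0.078, limma adjusted p = 0.257) with no overlap. Rbfa, a small-subunit maturation factor, differed by 0.18 and Ftsj2, another rRNA methyltransferase, by 0.13.

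Among 13 translation factors the median was -0.014. Mrrf, the ribosome recycling factor, and Tufm, the elongation factor that delivers tRNA, each differed by 0.17 (unadjusted limma p of 0.0421 and 0.0464, adjusted p of 0.369 and 0.382). The mean of the probes of Mrrf gave 0.048. Gfm2, which acts in recycling, differed by -0.11 with no overlap.

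Of 16 mitochondrial tRNA synthetases, 7 lay above zero and 9 below. Fars2, for phenylalanine, read 2.70, 2.76, 2.77 and 2.82 in the controls and 2.96, 2.95, 3.0 and 3.0 in the anti-CD4 samples. The groups were clearly apart, with a difference of 0.22 (SE 0.054, limma adjusted p = 0.25). Yars2, for tyrosine, differed by -0.19 with no overlap (adjusted p = 0.336), and Mars2, for methionine, by -0.42 with overlap (adjusted p = 0.449). Mars2 was not well above background on every array, and its difference was -0.19 with normexp and -0.11 in the authors' deposited table.

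Of 14 genes of mitochondrial DNA upkeep and transcription, 9 lay below zero, with a median of -0.058. Mtpap, the polymerase that adds poly(A) tails to mitochondrial transcripts, read 0.99, 1.32, 1.18 and 0.95 in the controls and 0.85, 0.70, 0.77 and 0.82 in the anti-CD4 samples. The difference was -0.33 (SE 0.092, limma adjusted p = 0.259). Polrmt, the mitochondrial RNA polymerase, differed by -0.13 with no overlap. Tfam, which packages mitochondrial DNA, differed by -0.095, and Pnpt1, an exoribonuclease, by -0.093.

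The 9 regulators of mitochondrial biogenesis that were tested gave no gene at an unadjusted p under 0.05 and none whose groups did not overlap. Over all features these shares were 12.8% and 8.09%. Ppargc1a, the coactivator PGC-1 alpha, differed by 0.13 (SE 0.068). Nrf1, whose motif was searched above, differed by 0.082 (SE 0.082), and Gabpa, the ETS factor, by -0.058 (SE 0.12). Yy1, whose motif was also searched, differed by 0.098 (SE 0.071) and was named after its values were seen. Pprc1, a related coactivator, differed by 0.17 and Myc by -0.15.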

How the data were processed

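The members and gene lists were chosen with earlier results of these data known. Per the file headers, the deposited spot intensities were made with Feature Extraction 10.7.3.1, which subtracted background and detrended within each array, with no scaling between arrays. The authors' deposited table holds log2 values of the same arrays with column medians of 7.83; limma is named in the submitters' processing notes, its direction and scale follow the scanner signals, and how it was normalized is not given in the sources used here. Flags per spot (above background, outlier, saturated) are Feature Extraction's own.

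Control spots were left out. Outlier-flagged spots were left out unless every spot of the probe on that array was flagged, in which case they were kept. The processed signal was put on the log2 scale and the 75th percentile of its array subtracted. The contrast between groups used limma 3.58.1 in R 4.3.3 (lmFit, eBayes; two-sided), and p-values were adjusted by Benjamini-Hochberg over 20894 features. The scripts were tested on simulated data. Array measures were compared with an exact permutation test over 70 assignments, whose smallest p is 0.0286. Flagged spots numbered 98 to 124 per control array and 127 to 179 per anti-CD4 array (exact permutation p = 0.0286). Of the 76 genes, 74 matched RefSeq by accession under the same symbol. Mrpl30 was not among them. Its brightest probe is placed at chr11:3370827-3370886 (mm9), while its promoter window is on chr1, so that probe may not read Mrpl30. This probe gave 0.08 and the other tested probe -0.065.

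Named were genes past the adjusted threshold, then genes whose groups did not overlap (up to 12 per direction), genes with probes of opposite sign and one at an unadjusted p under 0.05, genes with 1 array far from its group, the 3 nearest zero, up to 3 per other list, and a fixed set of mitochondrial regulators. Others are said to have been picked after their values were seen. Alternatives were other normalizations, normexp background, other filters, the mean of a gene's probes, a replicate block, array weights, trend and robust empirical Bayes, the authors' table, a Ttr covariate and leaving out single arrays. The reading of the Ttr slope and the fit without 2 low arrays were added after seeing the data. The number of arrays limits the precision.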

Additional observations from a re-analysis of the deposited data

Results flagged for a closer look

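In 4 of 152 groups of 4 arrays (2.63%), 1 array lay far from the other 3 by Dixon's gap test at 95%, which chance does in about 1 in 20 groups. Mrpl14, a large-subunit gene with a bacterial counterpart, read 4.31 in control 3 against 4.22 to 4.23 in the other controls. Mrps21, a small-subunit gene, read 4.19 in anti-CD4 2 against 4.41 to 4.45. Mrps27, a small-subunit protein with RNA-binding repeats, read 0.18 in control 2 against 0.39 to 0.42. Mrps30 read 2.15 in anti-CD4 3 against 2.30 to 2.32. None of these genes had groups that did not overlap.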

How the results depend on the processing

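No mitoribosomal gene passed an adjusted p of 0.05 in limma under any of the 19 alternative settings, the lowest being 0.134 for Mrpl41 in the authors' table, and none passed 0.1 in the fit reported. The count at an unadjusted p under 0.05, 5 as reported, was 8 with the Ttr covariate (against 13.4% of all features), 9 with array weights (16.0%), 10 in the authors' table (16.5%), 3 with no filter (7.9%), 8 with normexp (14.8%), 9 with quantile normalization (14.2%), 8 with trend and robust empirical Bayes (13.5%), and 1 to 9 with each array left out. The share of the mitoribosomal genes was the lower one in each of these settings. The count of genes whose groups did not overlap, 5 as reported, was 16 in the authors' table (10.4% of all features), 10 with normexp (9.03%), 9 with quantile normalization (9.29%), and 6 to 15 with each array left out. Leaving out anti-CD4 3 gave 15 (16.8% of all features), leaving out control 1 gave 12 (11.4%) and leaving out anti-CD4 4 gave 8 (10.71%). With no filter the count stayed at 5 (6.58% of the genes, against 5.45%). The median difference ran from -0.014 to 0.027 with each array left out, and was 0.0048 without both control 1 and anti-CD4 3. The cause of these changes was not tested.

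No pairing of the samples by replicate number, which is also the slide column, was seen. Deviations of same-numbered samples correlated at -0.502 to 0.288 over 4 pairs. These correlations cannot exclude a pairing, because choroid plexus signal also differed within pairs (Ttr of 8.16 in control 1 and 1.22 in anti-CD4 1). With the replicate block, 1 mitoribosomal gene had an unadjusted p under 0.05, against 8.95% of all features.

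With the mean of a gene's probes, Mrps23 was 0.077, Mrps25 0.10 and Ppargc1a 0.055. In the authors' table Dap3 was 0.038, Myc -0.052, Pprc1 0.087 and Esr1 0.39.

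Signs changed for genes near zero and for genes whose probes differ. In the authors' table Mrpl43 was -0.08, Mrpl50 -0.0016, Mrpl45 -0.0082 and Mrps21 -0.027. With normexp Mrpl43 was -0.049, Mrpl50 -0.011, Mrpl39 -0.017 and Mrps21 -0.0034. With quantile normalization Mrpl43 was -0.029, Mrpl50 -0.0069 and Mrpl45 -0.011. With the mean of a gene's probes Mrpl39 was -0.076, Mrps7 -0.033, Mrpl50 -0.013, Mrpl43 -0.041 and Pnpt1 0.0054. Mrps30 was 0.015 with the Ttr covariate and 0.011 with array weights, where Mrpl43 was -0.0071. With each array left out, Mrpl39 ran from -0.019 to 0.081, Mrpl50 from -0.054 to 0.039, Mrpl45 from -0.058 to 0.036, Mrpl43 from -0.035 to 0.026, Mrps30 from -0.029 to 0.032, Gabpa from -0.16 to 0.0041 and Ttr from -0.12 to 3.27.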
